A study of Mus musculus with 15 samples.

Results

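The Hippo pathway and its TEAD transcription factors were followed in mouse embryonic stem cells (ESCs) that were losing OCT4, the product of Pou5f1 and a core factor of pluripotency. Membership was set by name. The members and all gene lists were chosen with earlier results of these data known, so their counts beside the shares of all genes are only a description. Of the 48709 genes counted in each library, the 10 members were the coactivators Yap1 and Wwtr1 (TAZ), the TEAD factors Tead1, Tead2 and Tead4, the kinases Lats1 and Lats2, and the upstream regulators Amot, Amotl2 and Nf2. All 10 were measured in all 15 RNA sequencing libraries and all 10 passed the filters on low counts used in both lines.

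OCT4 was removed by different routes in 2 lines, which sets a gradual loss against a rapid one. CreER ESCs, of mixed 129SV C57BL/6 strain and genotype Oct4Fl/-; CAG CreER, carry 1 floxed and 1 null Oct4 allele, and 500 nM 4OHT activates a recombinase that deletes the floxed allele, so the transcript and protein then decline by turnover. They were sampled untreated and at 12, 18, 24 and 36 h of 4OHT, with 2 libraries at each time. O4AID ESCs are ZHBT cells of 129SV strain without endogenous Oct4 (Oct4-/-) that carry a TetOFF Oct4 transgene with the degron fusion Oct4AID and the auxin receptor Tir1, each driven by CAG, in which 1 µg/ml doxycycline silences wild-type Oct4 and 500 µM of the auxin IAA marks the degron-tagged OCT4 protein for degradation. These were sampled untreated and at 1.5, 6, 10 and 24 h of IAA, with 1 library at each time. Both lines grew in N2B27 with 1 µM PD03, 3 µM Chiron and LIF, a medium that holds ESCs in the naive state. The ubiquitous CAG promoter drives the recombinase, the tagged OCT4 and TIR1, every cell of both lines already lacked 1 or both endogenous Oct4 alleles before treatment, and the only controls analysed here are the untreated libraries.

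In the Hippo pathway, the kinases MST1/2 act on LATS1/2, which phosphorylate the coactivators YAP and TAZ and hold them out of the nucleus. NF2 and the angiomotins AMOT and AMOTL2 act upstream of LATS at cell junctions or bind YAP directly. YAP and TAZ that reach the nucleus bind TEAD factors, which carry the DNA-binding domain. In the early embryo TEAD4 with nuclear YAP switches on Cdx2 and Gata3 in the outer cells that become trophectoderm, and Lats2 and Amotl2 are themselves well-known transcriptional targets of YAP and TEAD. These genes were counted as transcripts only, so that phosphorylation and location of the proteins were not measured.

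TEAD factors recognise the letters GGAATG, or CATTCC on the other strand. The RefSeq promoter windows (GRCm38.p6), which run from 250 bases before to 50 bases after an annotated start, were searched for these letters on both strands, because several members are held to answer to TEAD factors themselves. Of the 8 members with a window, 4 held the element (Yap1, Wwtr1, Lats2 and Amotl2), against 16.6% of the 27025 genes with a window, and the sequences are shown with the element in capitals and the bases around it in lower case, 5′ to 3′ on the strand of the gene. The stretch of Lats2 is shorter after the element because no stretch was printed past 14 bases after the start. Windows for Tead1 and Tead4 were not in the table.
Yap1, minus strand, chr9:8004712-8004757: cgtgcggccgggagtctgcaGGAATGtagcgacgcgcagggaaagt
Wwtr1, minus strand, chr3:57576021-57576066: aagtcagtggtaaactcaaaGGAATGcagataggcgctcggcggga
Lats2, minus strand, chr14:57746110-57746139: aggggtcacgtgacgcccgtGGAATGccaa
Amotl2, plus strand, chr9:102717719-102717764: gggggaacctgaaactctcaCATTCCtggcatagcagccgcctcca
Ccn1, minus strand, chr3:145650063-145650108: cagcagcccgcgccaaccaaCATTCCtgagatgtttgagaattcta
Ccn1 (CYR61), a secreted protein and a classical YAP target whose values are given further on, is shown as a reference. Relative to the start, the first letter of the element lay at -141 in Yap1, at -65 in Amotl2, at -103 in Ccn1 and at 4 in Lats2, and at -136 or -170 from the 2 starts of Wwtr1. The octamer ATGCAAAT, to which OCT4 binds, was in none of the 8 members' windows on either strand, and in 1.97% of the genes. A match of letters is only a description of these windows and says nothing of binding.

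Counted reads per library, in units of 1000000, numbered 21.7 to 30.8 in CreER and 40.5 to 48.7 in O4AID. Levels are given as CPM, the reads of a gene per 1000000 reads of the library after TMM scaling within a line. Pou5f1 itself was at 330 and 324 CPM in the untreated CreER libraries and at 115 and 128 CPM at 36 h, a log2 fold change of -1.43 ± 0.05 (SE; edgeR adjusted p = 4.15e-19). In O4AID it went from 715 CPM at 0 h to 609 CPM at 24 h, and since IAA acts on the protein, this transcript does not check the degradation there. The 8 markers fixed for ESCs (Nanog, Sox2, Klf4 and others) summed to 1959 to 2108 CPM across the CreER libraries and went from 4887 CPM to 1262 CPM in O4AID, while the 7 markers of fibroblasts stayed at or under 10.3 CPM in sum in every library, with Dcn without a read in O4AID. The markers of mesoderm summed to at most 1.79 CPM and those of neural cells to at most 14.6 CPM. The 6 markers of primitive endoderm summed to between 6.09 and 10.9 CPM in CreER and in O4AID were at 9.06 CPM at 0 h and 32.4 CPM at 24 h, and their part in the members' values was not tested. Fewer cells of a type and less RNA per cell cannot be told apart in such bulk libraries.

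In CreER ESCs most members rose gradually. Tead4, Amot, Amotl2 and Lats2 had the highest log2 fold changes at 36 h (0.57 to 0.80), the other TEAD factors and the coactivators rose by 0.16 to 0.37, Lats1 did not pass the test at any time and Nf2 was slightly lower at the end. None of the 10 was called at 12 h (edgeR quasi-likelihood test, adjusted p under 0.05), when 0.395% of the 18969 genes tested were called, although 3 had an unadjusted p under 0.05 (Tead4, Amot and Amotl2), and DESeq2 also called 0. At 18 h 4 members were called, all higher (Tead1, Tead4, Amot and Amotl2), against 8.52% of all genes called and 4.73% called higher. Tead1 and Tead4 lost their calls with DESeq2, with only the 4 libraries compared, and without the first 18 h or the second untreated library. At 24 h 6 were called, all higher (Tead2 and Lats2 in addition), against 21.6% of all genes called and 11.0% called higher, and only 4 were called at that time with DESeq2, with only the 4 libraries compared, and without either 24 h or the second untreated library. At 36 h 8 were higher and 1 lower, against 36.6% of all genes called, 19.4% higher and 17.2% lower. The median log2 fold change of the members was 0.04, 0.15, 0.20 and 0.32 at the 4 times, where that of all genes tested was at most 0.013 in size. All 4 comparisons use the same untreated libraries. From 24 h to 36 h, a step without them, 3 members were called higher (Yap1, Tead4 and Amotl2), against 14.7% of all genes called and 8.13% higher. The calls of Yap1 and Tead4 depended on single libraries. With 1 library left out, Yap1 ranged from 0.07 to 0.22, Tead4 from 0.25 to 0.46 and Amotl2 from 0.21 to 0.29. Yap1 was also not called with DESeq2 (adjusted p = 0.0593) or with only the 4 libraries compared (edgeR adjusted p = 0.069). Neither Yap1 (0.04) nor Tead4 (0.24) was called with total-count scaling (edgeR adjusted p = 0.64 and 0.0538). A single test over all times called 8 of the 10, all but Lats1 and Nf2 (34.4% of all genes). No member differed by 1.5-fold or more between the 2 libraries of any time. The labels name the libraries of a time as replicates without saying that they are separate cultures, so the p-values measure only the spread between these libraries.

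**Figure D1:**
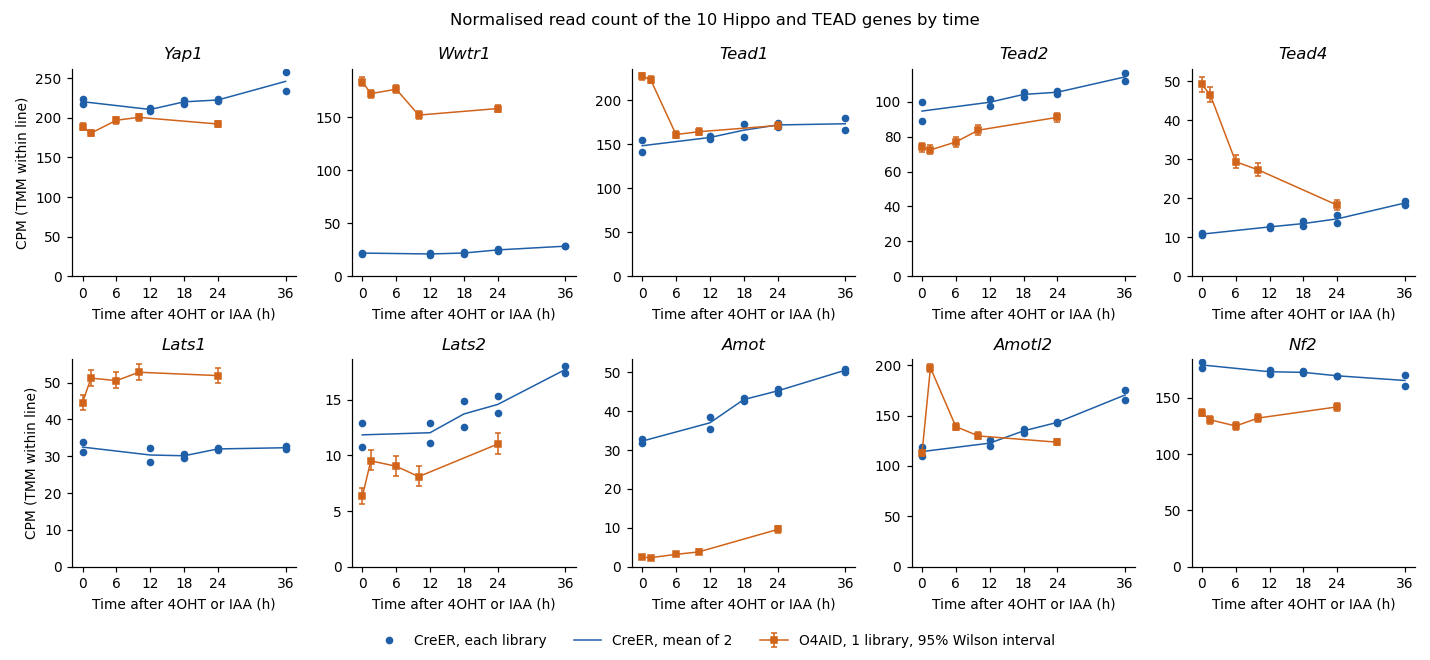
Normalised read count (TMM-scaled CPM, linear axes from 0) of each member against time in hours after 4OHT (CreER, circles for each of the 2 libraries and a line through their mean) or IAA (O4AID, squares for the 1 library with its 95% Wilson interval of counting). Tead4 climbed in CreER from a mean of 10.8 to 18.8 CPM and went down in O4AID from 49.2 to 18.3 CPM, and Amotl2 stood at 197 CPM in the O4AID library of 1.5 h alone.

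Of the coactivators, both were called in CreER at 36 h only. Yap1 was at 217 and 223 CPM untreated and at 258 and 234 CPM at 36 h in CreER, with the libraries of 12, 18 and 24 h between 208 and 224 CPM. The 36 h libraries were the only pair above both untreated ones, by 0.16 ± 0.04 on the log2 scale (SE; edgeR adjusted p = 0.00508), and the call was lost with total-count scaling (0.07, adjusted p = 0.244) and without the first library of 36 h (0.09, adjusted p = 0.163). Wwtr1, the less abundant of the pair in CreER, was at 21.5 and 22.4 CPM untreated, between 19.8 and 25.8 CPM at 12 to 24 h, and at 28.3 and 28.6 CPM at 36 h. Both 36 h libraries of Wwtr1 were above all others, a log2 fold change of 0.37 ± 0.08 (SE; edgeR adjusted p = 0.000247). O4AID ESCs ended below their untreated level of Wwtr1. They read 184, 172, 177, 152 and 158 CPM at 0, 1.5, 6, 10 and 24 h, with a 24 h difference of -0.21 in log2(CPM + 1) (95% interval of counting -0.26 to -0.17). Yap1 read 189, 180, 197, 200 and 192 CPM in the same libraries and stayed within 0.09 of its untreated level on that scale.

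With 1 library at each time, the O4AID values carry no test. A member was set apart there when log2(CPM + 1) differed from the untreated library by 1.5-fold or more, and the intervals cover counting error only. By this rule 1 member stood apart at 1.5 h (Amotl2, higher; 0.675% of 17471 genes, 0.229% higher) and 1 at 6 h (Tead4, lower, where 4.44% of all genes stood apart and 2.25% were lower). At 10 h it was again Tead4 alone, lower (7.91% of all genes, 3.47% lower), and by 24 h it was 3 members, with Lats2 and Amot higher and Tead4 lower (19.7% of all genes, 11.1% higher and 8.62% lower). The median difference over the members was 0.09 at 24 h, beside 0.001 over all genes.

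Of the TEAD factors, the DNA-binding partners of YAP and TAZ, Tead4 and Tead1 ended above the untreated level in CreER and below it in O4AID, a difference between the lines that could not be tested. At 24 h, 19.0% of the 16145 genes that passed the filters of both lines had both CreER libraries beyond both untreated ones and the O4AID library on the other side. Tead4, the family member that the trophectoderm needs, read 11.2 and 10.5 CPM in the untreated CreER libraries and then, in order of time, 12.9 and 12.4, 14.3 and 12.8, 15.8 and 13.7, and 19.3 and 18.3 CPM. Every treated library lay above both untreated ones, and the gene rose by 0.32 ± 0.09, 0.45 ± 0.09 and 0.80 ± 0.09 on the log2 scale at 18, 24 and 36 h (SE; edgeR adjusted p = 0.03, 0.000645 and 6.23e-08). In O4AID it began at 49.2 CPM and read 46.5, 29.4, 27.3 and 18.3 CPM at 1.5, 6, 10 and 24 h. The O4AID level thus came down between 1.5 and 6 h, with a difference of -0.72 from the untreated library (95% interval -0.82 to -0.63), and further to -1.38 at 24 h (-1.49 to -1.27). Its CPM at 24 h was near that of CreER at 36 h, but each line was scaled on its own, so these levels are not on 1 scale. The 18 h call of Tead4 did not hold with DESeq2 (adjusted p = 0.114) or with only the 4 libraries compared (edgeR adjusted p = 0.062). Nor did it hold without the first 18 h (0.24) or the second untreated library (0.28). At 36 h every alternative called Tead4.

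Tead1 moved the same way as Tead4, by less. In CreER it read 155 and 142 CPM untreated and 180 and 167 CPM at 36 h, and it rose by 0.16 ± 0.05, 0.21 ± 0.05 and 0.23 ± 0.05 on the log2 scale at 18, 24 and 36 h (SE; edgeR adjusted p = 0.0415, 0.00269 and 0.000771). The 18 h call was lost under 6 alternatives, among them DESeq2 (adjusted p = 0.113), and the 24 h call without the second untreated library (adjusted p = 0.0714). No further change was detected from 24 h to 36 h (0.01 ± 0.05, edgeR adjusted p = 0.908). In O4AID its values were 227, 224, 161, 164 and 171 CPM in order of time, so that the step fell between 1.5 and 6 h and the level then stayed. The difference at 24 h was -0.41 (95% interval -0.45 to -0.36), short of 1.5-fold. Tead2 had a last value above the untreated level in both lines. It read 100.0 and 89.2 CPM untreated and 117 and 112 CPM at 36 h in CreER (log2 fold change 0.27 ± 0.05, SE; edgeR adjusted p = 8.32e-05), and it read 73.8, 72.4, 76.9, 83.7 and 91.0 CPM in the O4AID series (0.30 at 24 h, 95% interval 0.24 to 0.36). Its CreER call at 24 h (0.16, edgeR adjusted p = 0.0236) was lost with DESeq2 (adjusted p = 0.0897), with only the 4 libraries compared (adjusted p = 0.0643), without either 24 h library (adjusted p = 0.163 and 0.0858) and without the second untreated one, when the value was 0.07 (adjusted p = 0.382).

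These shifts changed which TEAD transcripts the cells held. Per kilobase of exon, which allows genes of different length to be compared and does not depend on the scaling between libraries, Tead4 made up 8.29% and 8.62% of the summed Tead1 to Tead4 level in the untreated CreER libraries and 11.8% in both libraries of 36 h. Its O4AID share went from 29.3% untreated over 28.5% and 22.2% at the first 2 treated times to 13.4% at the last, while that of Tead2 went from 33.1% to 50.2%. Tead2 held 53.0% to 55.9% in every CreER library, so the O4AID make-up at 24 h lay nearer to that of CreER than the make-up at 0 h did. These shares were chosen as a summary after the members' levels were seen.

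**Figure D2:**
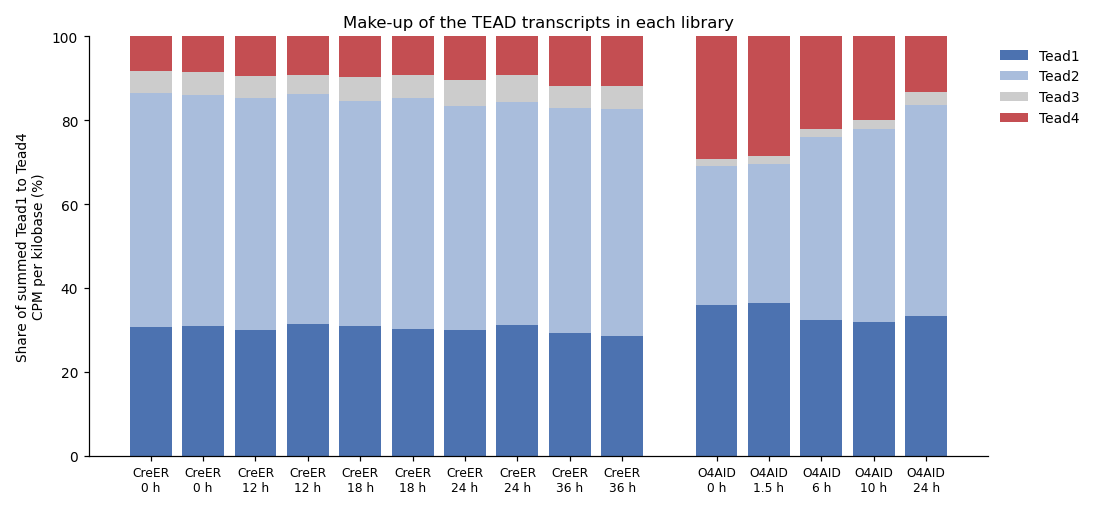
Share in percent of the summed Tead1, Tead2, Tead3 and Tead4 level (CPM per kilobase of exon) that each gene held, 1 stacked bar for each of the 15 libraries, with the 10 CreER libraries on the left and the 5 O4AID libraries on the right, in order of time. The Tead4 segment grows from 8.29% and 8.62% to 11.8% in CreER and shrinks from 29.3% to 13.4% in O4AID.

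Of the LATS kinases, which phosphorylate YAP and TAZ, Lats2 moved and Lats1 did not pass the test. Lats2 was low throughout, at 10.8 and 12.9 CPM untreated and 17.4 and 18.1 CPM at 36 h in CreER. The 36 h libraries were above all 8 others, a log2 fold change of 0.57 ± 0.10 (SE, edgeR adjusted p = 6.08e-05). The 24 h value was 0.29 ± 0.10 (edgeR adjusted p = 0.0431). Its call was lost with DESeq2 (adjusted p = 0.127) and with only the 4 libraries compared (edgeR adjusted p = 0.0626). The call was also lost without either 24 h library or the first untreated one, when the value ranged from 0.17 to 0.36. In O4AID the values were 6.32, 9.52, 9.03, 8.10 and 11.0 CPM, from 297, 426, 374, 332 and 525 reads. All 4 treated libraries were above the untreated one, with differences of 0.52 (95% interval 0.33 to 0.71) at 1.5 h and 0.72 (0.53 to 0.90) at 24 h, but against the library of 1.5 h the 24 h difference was 0.19 and no longer past 1.5-fold. The counted Lats2 model lists 17 exons, of which 3, with 332 bases, lie in the span of its neighbour Xpo4 on the same strand and overlap exons of it, so that a part of the reads there may be missing or shared. Xpo4 held 2111 to 4676 reads per library, more than Lats2 in every one. Lats1 was at 31.2 and 33.7 CPM untreated and 32.7 and 32.0 CPM at 36 h in CreER, a difference of -0.01 ± 0.07 on the log2 scale (SE; edgeR adjusted p = 0.934). In O4AID it was at 44.6 CPM at 0 h and between 50.5 and 52.8 CPM afterwards, from 0.18 to 0.24 above the untreated library.

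The angiomotins, scaffold proteins that bind YAP and help to activate LATS, rose in CreER and followed unlike courses in O4AID. Amot read 31.8 and 32.8 CPM in the untreated CreER libraries, followed over the 4 treated times by 35.4 and 38.6, 43.4 and 42.5, 45.7 and 44.7, and 50.1 and 50.9 CPM. No time overlapped with the one before it, and the log2 fold changes were 0.41 ± 0.06, 0.48 ± 0.06 and 0.64 ± 0.06 at 18, 24 and 36 h (SE; edgeR adjusted p = 3.06e-05, 5.52e-07 and 1.16e-09). O4AID ESCs started with almost none: 2.45, 2.32, 3.19, 3.81 and 9.58 CPM, from 115, 104, 132, 156 and 456 reads. The value at 24 h was 1.62 above the untreated library on the log2(CPM + 1) scale (95% interval 1.39 to 1.84), and 0.97 with a pseudocount of 5 CPM in place of 1.

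Amotl2 was the 1 member past 1.5-fold at the first O4AID time. It stood at 113 CPM untreated and at 197 CPM after 1.5 h of IAA, from 5295 and 8836 reads, then at 139, 130 and 124 CPM at 6, 10 and 24 h. The difference at 1.5 h was 0.80 (95% interval 0.76 to 0.85), ranked 7 of 17471 genes from the highest at that time, and it shrank to 0.30, 0.20 and 0.13. Only 1 library carries this peak, and there is no second library of that time to set beside it. In CreER, whose first treated library came at 12 h, Amotl2 climbed without a peak, from 119 and 110 CPM to 125 and 120, 137 and 133, 143 and 144, and 165 and 176 CPM. Its log2 fold change at 36 h was 0.58 ± 0.05, the call with the smallest adjusted p among the members (SE; edgeR adjusted p = 8.29e-11), and from 24 h to 36 h it rose by 0.25 ± 0.05 (edgeR adjusted p = 0.00029). Nf2, which encodes the membrane-linked tumour suppressor Merlin, was at 182 and 177 CPM untreated and at 170 and 160 CPM at 36 h in CreER. Its change of -0.11 ± 0.04 (SE, edgeR adjusted p = 0.0319) was not called by DESeq2 (adjusted p = 0.0522) or with only the 4 libraries compared (edgeR adjusted p = 0.117). Nor was it called without the second 36 h library (-0.07) or the first untreated one (-0.10). The edgeR test over all times did not call Nf2 (adjusted p = 0.215). In O4AID it read 137, 130, 125, 132 and 142 CPM.

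**Figure D3:**
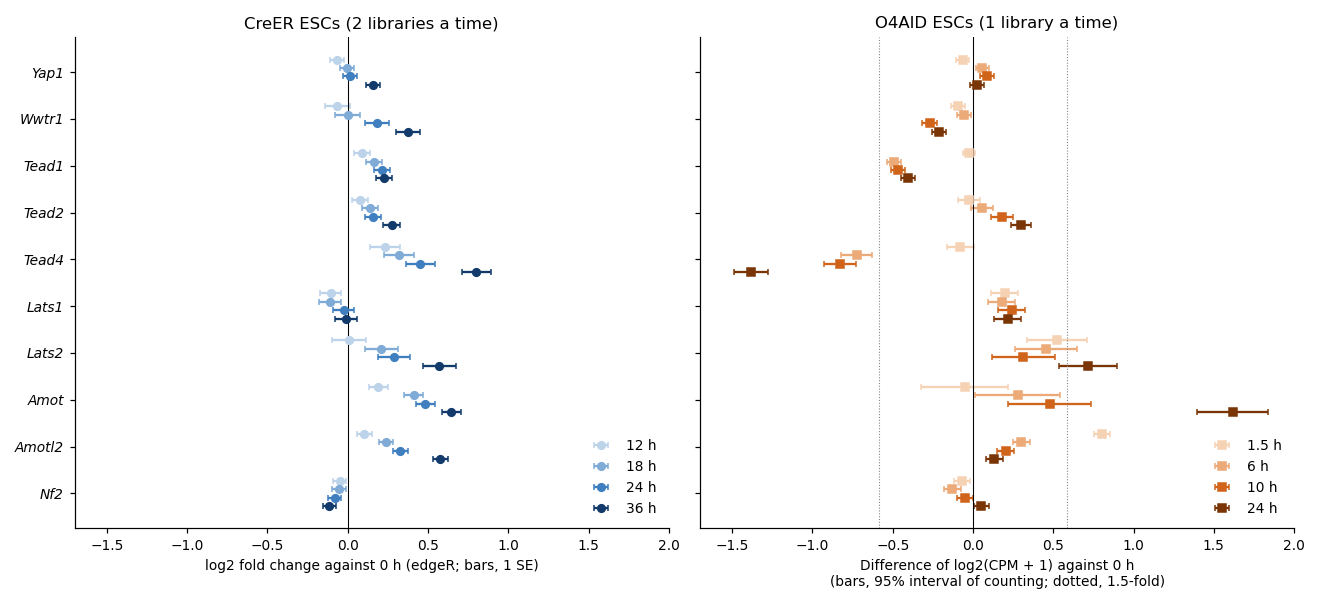
Change of each member against the untreated libraries of its own line at each time: on the left the edgeR log2 fold change in CreER with bars of 1 SE, on the right the difference of log2(CPM + 1) in O4AID with 95% intervals of counting and dotted lines at 1.5-fold. Tead4 lies at 0.80 (36 h) on the left and at -1.38 (24 h) on the right, while Amot is to the right of 0 in both at the last time.

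The lines were already unlike before OCT4 was lost. Per kilobase of exon, with 1 TMM scaling over all 15 libraries, the mean CreER order was Nf2 (25.7), Yap1 (23.3), Tead2 (19.3), Amotl2 (17.8), Tead1 (10.7), Wwtr1 (4.50), Lats1 (4.36), Amot (3.76), Tead4 (2.94) and Lats2 (1.59), and the 2 untreated libraries overlapped only between Tead2 and Amotl2 and between Wwtr1 and Lats1. In O4AID the order was Wwtr1 (40.7), Yap1 (21.6), Nf2 (21.2), Amotl2 (19.0), Tead1 (17.7), Tead2 (16.3), Tead4 (14.5), Lats1 (6.46), Lats2 (0.916) and Amot (0.308). Wwtr1 thus led the O4AID order and was sixth of the members in CreER, a 9.05-fold difference, and made up 65.3% of the summed Yap1 and Wwtr1 level against 16.1% and 16.3%. Tead4 was 4.91-fold higher in O4AID, and Amot 12.2-fold lower. The lines differ in strain, genotype and culture with doxycycline, which cannot be told apart here, and 33.6% of 11399 genes with a mean of at least 5 CPM differed by 2-fold or more between the untreated lines, with a median of 0.18 on the log2 scale toward O4AID.

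**Figure D4:**
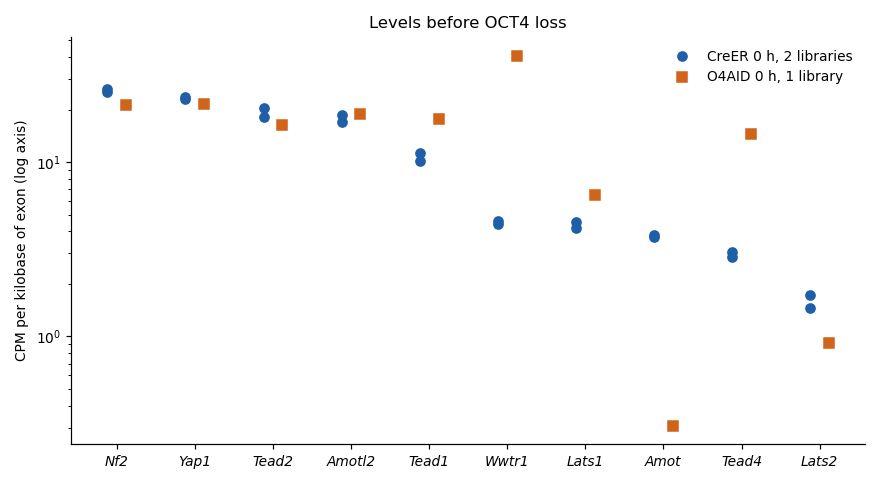
Level of each member before OCT4 loss in CPM per kilobase of exon, on a log axis, for the 2 untreated CreER libraries (circles) and the untreated O4AID library (square), ordered by the CreER mean. Wwtr1 (4.50 against 40.7) and Tead4 (2.94 against 14.5) lie higher in O4AID and Amot (3.76 against 0.308) lower.

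The rest of the pathway had a median near 0. Of 20 other Hippo genes (MST, MOB1 and TAO kinases, WWC proteins, LIM-domain proteins and others), 6 rose, 2 fell and 12 did not pass the test at 36 h in CreER, where 36.6% of all genes were called, 19.4% higher and 17.2% lower, with a median log2 fold change of -0.002 beside 0.007 over all genes. The largest rises were those of the kinases Taok3 (from 6.38 and 6.73 to 10.4 and 8.95 CPM, 0.56 ± 0.11) and Stk3, or MST2 (0.40 ± 0.08), and of Limd1, a LIM-domain protein that restrains LATS (0.40 ± 0.05; SE, edgeR adjusted p = 0.00024, 0.000181 and 8.08e-07). Limd1 was also higher in O4AID, at 36.5, 41.9, 45.2, 49.4 and 66.9 CPM in order of time (0.86 at 24 h, 95% interval 0.77 to 0.94). Wwc1 (KIBRA), an upstream activator, was the 1 gene of 19 past 1.5-fold and lower there (Limd1 was the 1 higher; 8.62% of all genes were lower and 11.1% higher), at 69.2 CPM at 0 h and 37.5 CPM at 24 h, while it was called higher in CreER (0.21 ± 0.07, SE; edgeR adjusted p = 0.0246). That call was lost with DESeq2 (adjusted p = 0.0622), with total-count scaling (0.13, adjusted p = 0.212) and without either 36 h or the second untreated library (adjusted p = 0.093, 0.145 and 0.203). Of 5 genes that share partners with the TEAD factors or bind them (Tead3 and the vestigial-like Vgll1 to Vgll4), 3 of the 4 tested rose at 36 h in CreER (2 with DESeq2 or total-count scaling; 19.4% of all genes rose), with a median of 0.45. Vgll3 went from 13.3 and 15.1 to 23.5 and 21.7 CPM (0.67 ± 0.09), Vgll4, which competes with YAP for TEAD factors, from 9.23 and 8.72 to 12.8 and 12.7 CPM (0.51 ± 0.09), and Tead3 by 0.34 ± 0.11 (SE; edgeR adjusted p = 1.03e-06, 8.52e-05 and 0.0127). Tead3 lost its call with DESeq2 (adjusted p = 0.0766) and without the first 36 h or the second untreated library (adjusted p = 0.0596 and 0.0899). In O4AID Vgll4 read 20.8, 25.1, 31.1, 36.8 and 50.7 CPM, higher at every step, and was 1.25 above the untreated library at 24 h (95% interval 1.14 to 1.35).

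The genes that YAP and TEAD factors are known to switch on moved in both directions. Of 20 listed targets 18 were tested in CreER at 36 h, where 10 rose, 5 fell and 3 did not pass the test (19.4% of all genes rose, 17.2% fell), and the median log2 fold change was 0.26 beside 0.007 over all genes. Ccn1 went from 59.5 and 58.5 to 95.5 and 105 CPM (0.76 ± 0.05), the kinase gene Nuak2 from 8.46 and 8.39 to 14.9 and 13.8 CPM (0.77 ± 0.10), and F3, the gene of tissue factor, from 13.5 and 12.1 to 22.0 and 20.9 CPM (0.75 ± 0.08; SE, edgeR adjusted p = 3.49e-12, 9.8e-07 and 3.96e-08). Ccn2 (CTGF), the other classical target, fell instead by 0.27 ± 0.07 (SE; edgeR adjusted p = 0.00324), a call lost without the first 36 h library (-0.16, adjusted p = 0.131). In O4AID at 24 h 2 of 17 targets were past 1.5-fold and higher and 5 lower, against 11.1% and 8.62% of all genes, with a median of -0.20 beside 0.001. Ccn2 had a difference of -1.57 from the untreated library, at 8.30, 5.47, 4.03, 2.93 and 2.12 CPM in order of time, and lower at each step. The difference was -0.90 with a pseudocount of 5 CPM and -1.92 with one of 0.1 CPM. Crim1, a membrane protein that binds growth factors, had one of -1.12, while Ccdc80, a matrix protein, went from 0.128 to 3.09 CPM (1.86 above, 0.66 with a pseudocount of 5 CPM and 3.81 with one of 0.1 CPM). Ccn1 had a 24 h difference of -0.11 (95% interval -0.23 to 0.005). With a pseudocount of 5 CPM, 4 targets were past 1.5-fold in place of 7, and Crim1 (-0.50) was no longer among them.

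**Figure D5:**
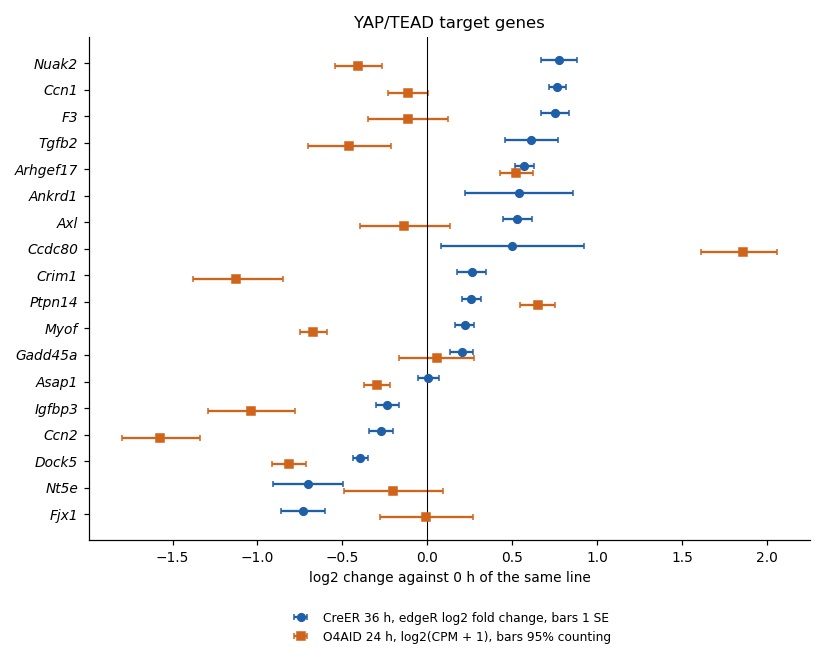
Change of the 18 YAP/TEAD target genes tested in CreER at 36 h (circles, edgeR log2 fold change with bars of 1 SE) and, for the 17 of the list with enough reads, in O4AID at 24 h (squares, difference of log2(CPM + 1) with 95% intervals of counting), ordered by the CreER value. Ccn1 lies at 0.76 in CreER and at -0.11 in O4AID, and Ccn2 lies below 0 in both.

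The trophectoderm genes, among them targets of TEAD4 in the embryo, were called higher in CreER at 36 h in 7 of 7 cases, against 19.4% of all genes, with a median log2 fold change of 0.98. The number called was 6 with DESeq2 and 6 when at least 10 counts were required in every library. The gene of the list with the fewest reads had at most 34 in any library. Cdx2 went from 2.81 and 2.67 to 14.5 and 14.9 CPM (2.43 ± 0.14), Eomes by 1.69 ± 0.08 and Gata3 from 2.25 and 2.33 to 4.46 and 4.57 CPM (0.98 ± 0.18; SE, edgeR adjusted p = 1.24e-13, 3.21e-15 and 8.23e-05). In O4AID at 24 h, 4 of the 6 with enough reads were past 1.5-fold, all higher, against 11.1% of all genes. The keratin genes Krt18 and Krt8 led them, from 5.62 to 33.5 CPM and from 8.94 to 36.6 CPM, while Cdx2 reached only 2.79 CPM from 0.894 CPM (1.00, 95% interval 0.72 to 1.27, and 0.40 with a pseudocount of 5 CPM). The list did not rise as a whole in O4AID. Eomes differed by only 0.09 (95% interval -0.10 to 0.27), and Tfap2c was slightly lower (-0.13, 95% interval -0.20 to -0.07). These values stand beside a Tead4 that was rising in CreER and at its lowest in O4AID, and no link between them was tested.

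The genes whose course was most like that of each member were taken by Pearson's r of log2(CPM + 1) over the 15 libraries, with the mean of each line removed, among 11457 genes. The r are given as a description, since libraries of 1 line share their untreated starting point and their time course. Tead4 was closest to the transcription factor Bach2 (0.97), the cyclin Ccnd3 (0.97) and the receptor Igf1r (0.97), and Tead1 to the angiomotin Amotl1 (0.93). Amot was closest to Siae (0.99), Arhgef5 (0.98) and the keratin Krt19 (0.98). Amotl2 was closest to Mlst8 (0.94), 4930522L14Rik (0.90) and Smad7 (0.90), the inhibitor of TGF-β signalling. Among the members themselves, the closest pairs were Tead2 with Amot (0.85) and Tead1 with Tead4 (0.83), and Nf2 had no member above 0.12.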

How the data were processed

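Ribosome-depleted total RNA was sequenced from CreER (10 libraries) and O4AID (5 libraries) ESCs with a directional kit. Per the labels and the study's methods, the authors trimmed reads with Trim Galore 0.1.4, aligned them with TopHat2 2.1.0 to GRCm38/mm10 and counted reads per Ensembl gene with featureCounts 1.5.1. The raw read counts they deposited, 1 table per library with gene spans and exon lengths, were used here. Strand and multimapping settings are not given in the sources used here. A table of the whole series with normalised values was not used. The exons of Cd37 overlap Tead2 on the other strand and held at most 10.9% of the reads of Tead2 in any library, and those of Gm20416 at most 0.356% of the reads of Yap1. Xpo4, on the same strand, overlaps exons of Lats2 and held 2111 to 4676 reads per library, more than Lats2 in each.

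The members and all gene lists were chosen with earlier results of these data known. CreER counts were tested with edgeR 4.0.16 in R 4.3.3 (TMM, filterByExpr, robust quasi-likelihood F test over all 10 libraries, Benjamini-Hochberg over 18969 genes). The study merged replicates and used NOISeq-sim. O4AID values are differences of log2(CPM + 1) with 95% Wilson intervals of each count share carried to the difference, over 17471 genes with a mean of at least 10 counts. The intervals cover counting error only. Named genes of the other lists were up to 3 with the largest change at CreER 36 h (called, 36 h libraries on 1 side of both untreated ones) and up to 3 at O4AID 24 h (past 1.5-fold), each with a mean of at least 50 counts. Wwc1 in CreER, Ccn2 in CreER and Ccn1 in O4AID were given for comparison after their values were seen. Likeness used genes with a mean of at least 5 CPM. Over all genes tested, deviations of replicate 1 correlated between times at -0.041 to 0.078 over 10 pairs of times. This shows no pairing by replicate number over the genes as a whole and cannot exclude it for single members. Lats2 was lower in replicate 1 than in replicate 2 at every CreER time, and Tead2 and Nf2 were higher. The fit was tested on simulated data with changes larger than any called for a member in CreER, so that test does not cover changes of the members' size. DESeq2 1.42.0, other scalings, filters, pseudocounts, a replicate block and the leaving out of each library were the alternatives.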

Additional observations from a re-analysis of the deposited data

Results flagged for a closer look

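At 24 h, the time both lines share, 4 of the 10 members lay on opposite sides of the untreated level in the 2 lines: both CreER libraries beyond both untreated ones in 1 direction, and the O4AID library in the other. Of the 16145 genes that passed the filters of both lines, 19.0% met the same rule. With 1 O4AID library at each time the difference between the lines was not tested, and no cause was weighed. Tead4 had a log2 fold change of 0.45 in CreER and a difference of -1.38 in O4AID. Tead1 had 0.21 in CreER and -0.41 in O4AID. Wwtr1 had 0.18 in CreER, where it did not pass the test at 24 h (edgeR adjusted p = 0.0764), and -0.21 in O4AID. Nf2 had -0.0796 in CreER, also short of the test (edgeR adjusted p = 0.179), and 0.0529 in O4AID. The same 4 members were found with total-count scaling, with RLE size factors and when the 36 h libraries stood for CreER.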

How the results depend on the processing

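Among the alternative values of the members' CreER changes, 489 kept direction and side of the threshold, 36 lost and 6 gained a call, and 19 turned sign, all of them values that were not called; no called change turned. Of the O4AID changes, 39 alternative values lay outside the counting interval of the reported value and 151 inside it. Counts of called members at 18 h were 2 with DESeq2, 2 with only the 4 libraries compared, and 2 to 5 when 1 library was left out, against 4; from 24 h to 36 h they were 1 to 3 when 1 library was left out, against 3, with 1 without the first library of 36 h or the second of 24 h. The cause was not tested. With a 2-fold rule, 0 members stood apart in O4AID at 1.5, 6 and 10 h and 0 other Hippo genes at 24 h, since that rule is stricter. At 10 h 2 members stood apart with a pseudocount of 0.1 CPM and 2 against the library of 1.5 h, where Amotl2 is lower. At 24 h 2 TEAD partner genes stood apart with a pseudocount of 0.1 CPM, 4 YAP/TEAD targets with a pseudocount of 5 CPM and 4 with the 2-fold rule, and 2 trophectoderm genes with a pseudocount of 5 CPM. The values that turned sign with total-count scaling were -0.0949 for Tead1 and -0.0913 for Lats1 (36 h against 24 h) and -0.032 for Lats2 (12 h); that scaling moved the median of all genes by -0.107 from 24 h to 36 h and by at most 0.0843 in size elsewhere. With 1 library left out, Yap1 ranged from -0.0221 to 0.0192 at 18 h and from -0.00744 to 0.033 at 24 h, Wwtr1 from -0.152 to 0.0256 at 12 h and from -0.0765 to 0.077 at 18 h, Tead2 from -0.00542 to 0.161 and Lats2 from -0.111 to 0.149 at 12 h, Lats1 from -0.0785 to 0.0317 at 24 h and from -0.0614 to 0.0492 at 36 h, and between 24 h and 36 h Tead1 from -0.047 to 0.0718, Lats1 from -0.0015 to 0.0348 and Nf2 from -0.0793 to 0.0108. A library left alone in its group was assumed to vary like the others.

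With the replicate number as a block, 4, 6 and 9 members were called at 18, 24 and 36 h, and 4 rather than 3 from 24 h to 36 h, where Lats2 gained its call (adjusted p = 0.0189); no other call of a member changed. The replicate numbers showed no pairing over all genes tested, which cannot exclude it for single members such as Lats2. The named genes of the other lists and Pou5f1 were run under the same alternatives, a choice made after seeing the data: Tead3 lost its call in 4 of them, among them total-count scaling (0.26, adjusted p = 0.0622), Wwc1 in 5 and Ccn2 in 1, and no other named gene did. All O4AID values rest on 1 library a time and share 1 untreated library, so their error beyond counting is unknown. Between CreER replicates the variance of counts was 3.27 to 7.76 times that of counting alone (chi-square per degree of freedom over genes).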

Other observations

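Lats2 formed a larger part of the LATS transcripts in the treated than in the untreated libraries of both lines, though by little in O4AID at 10 h. Per kilobase of exon it held 25.7% and 27.7% of the summed Lats1 and Lats2 level in the untreated CreER libraries and 34.7% and 36.1% at 36 h, with all treated libraries above both untreated ones. The O4AID shares were 12.4%, 15.7%, 15.1%, 13.3% and 17.5% in order of time, each from 1 library. They did not climb steadily, and the 10 h share rested on 332 Lats2 reads beside 297 untreated. A part of the Lats2 reads may be missing or shared where its exons overlap those of Xpo4. Amot held 16.7% and 18.3% of the summed Amot and Amotl2 level in the untreated CreER libraries and 18.5% and 17.8% at 36 h. In O4AID it held 1.60% at 0 h, 0.873% at 1.5 h, when Amotl2 was at its highest, and 5.48% at 24 h. These shares were chosen after the levels were seen and carry no test.

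The LIM-domain gene Ajuba, another restrainer of LATS, was 8.82-fold lower per kilobase in untreated O4AID than in untreated CreER ESCs (10.2 against a mean of 89.6), beside the 9.05-fold difference of Wwtr1 in the other direction. It was named after its values were seen. On chromosome 14, which holds Ajuba and Lats2, the median log2 difference of O4AID from CreER was -0.26, and 43.9% of genes differed by 2-fold or more. On chromosome 3, which holds Wwtr1, these were 0.31 and 39.9%, and over all genes 0.18 and 33.6%. On the other chromosomes with members the median ran from -0.04 (X, with Amot) to 0.29 (chromosome 11, with Nf2). Chromosome 6, which holds Tead4, was at 0.14. The part of the chromosomes in these differences was not tested.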
